A study of Mus musculus with 194 samples.

Results

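Cytosolic ribosomal protein genes encode the proteins that, together with ribosomal RNA, build the small and large subunits of the ribosome outside the mitochondria. The genes were taken by name, as symbols that start with Rpl or Rps and continue with a digit or a p, without the S6 kinases, pseudogenes and predicted Gm genes, and with a mean of at least 5 CPM (counts scaled to the same total in every library) in 1 or more brain structures. Of the 19363 genes counted, 85 had such a symbol and 82 passed the limit. They comprised 43 proteins of the large subunit, 30 of the small subunit, 3 of the P stalk, 5 paralogs (Rpl7l1, Rpl22l1, Rpl36al, Rps27l and Rps27rt) and Rps19bp1, a binding partner of Rps19 that is not itself a ribosomal protein. The other three, Rpl3l, Rpl39l and Rpl10l, reached at most 1.136, 0.474 and 0.018 CPM in any structure, whereas the lowest mean of a gene that passed was 35.5 CPM for Rpl36al. The name rule left out Rpsa, Fau and Rack1, among others, which also encode proteins of the cytosolic ribosome.

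Counts came from 3′ RNA-seq of bulk tissue from male C57BL/6OLAHSD mice given cocaine by intraperitoneal injection, and covered the amygdala (Amy), lateral hypothalamus (LH), dorsal striatum (DS), nucleus accumbens (NAc) and limbic cortex (LCtx, here medial prefrontal and cingulate cortex). Acute mice received their first cocaine, repeated mice (labelled Chronic) the last of a series of daily doses, and challenge mice 1 dose after a drug-free period that followed such a series, and tissue was taken 1, 2 or 4 hr later. The 0 hr mice received no cocaine on the day of collection and were drug-naive, repeatedly exposed and abstinent, respectively. By the paper's methods they were taken untreated from their home cage. In the time courses cocaine therefore cannot be told apart from the injection and handling that came with it. Each experience was a cohort of its own, with a second cohort among the repeated DS mice of run0230, so experience and cohort cannot be told apart. Libraries held 1193306 to 10367769 counts (median 3296647), and 28 samples had libraries in 2 sequencing runs, named here as in the labels. Striatal and hypothalamic markers matched the labels. The 11 striatal markers had a median summed level of 17667 CPM in the DS and 10234 CPM in the NAc against at most 1454 CPM elsewhere. The 4 markers of lateral hypothalamus neurons had 13502 CPM in the LH against at most 1123 CPM elsewhere. The 5 markers of cortical excitatory neurons were highest in the LCtx (3702 CPM) but had 2756 CPM in the DS and 2765 CPM in the Amy. Their ranges overlapped between the LCtx (2870 to 4424 CPM) and the DS (2021 to 3406 CPM).

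Ribosomal protein genes are among the most strongly transcribed genes of any cell, and neurons draw on them both in the soma and, as locally translated mRNAs, in dendrites and axons. Most of their mRNAs begin with a C followed by a run of pyrimidines, the 5′ terminal oligopyrimidine tract, through which mTOR signalling and the protein LARP1 set how much of the mRNA is translated. Translation of these mRNAs is therefore known to change without a change in mRNA level, and counts of mRNA measure only the latter. The windows below, 10 bases before to 20 bases from the annotated start (RefSeq, GRCm38.p6, 5′ to 3′ on the gene's strand), belong to genes on which the following results turn, and capitals mark, of the tracts of a C followed by at least 4 pyrimidines, the one that opens nearest to the annotated start, other such stretches being left in lower case.
Rps15a (chr7:118116128-118116157, minus strand): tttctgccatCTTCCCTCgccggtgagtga
Rpl38 (chr11:114668570-114668599, plus strand): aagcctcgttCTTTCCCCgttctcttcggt
Rps27 (chr3:90213629-90213658, minus strand): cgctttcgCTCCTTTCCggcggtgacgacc
Rps27rt (chr9:114982720-114982749, minus strand): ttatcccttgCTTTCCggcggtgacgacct
Rps6 (chr4:86857348-86857377, minus strand): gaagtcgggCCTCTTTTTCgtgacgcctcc
Rpl15 (chr14:18270967-18270996, minus strand): agaaagCCTTCTTCCTTTCCTCTggcggca
Rpl10 (chrX:74270806-74270835, plus strand): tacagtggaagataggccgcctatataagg
Rpl24 (chr16:55966265-55966294, plus strand): gctgttgctaggaaacagactgggcgctcg
In Rps15a, Rpl38 and Rps27rt the capital stretch opened at the annotated start itself. In Rps27, Rps6 and Rpl15 it opened upstream and ran across the start, where a C followed by at least 4 pyrimidines also stood. In the windows of Rpl10 and Rpl24 no such tract was found. Of the 61 ribosomal protein genes with a start in the RefSeq table, 37 (60.7%) had such a tract within 10 bases of a start, against 9297 of 27025 genes (34.4%) overall. Exactly at the start it was present in 14 of the 61 (23.0%) and in 813 of all genes (3.01%). Rps27rt, which as its suffix says is a retrotransposed copy of Rps27, shared a stretch of 19 bases with its parent in these windows (ctttccggcggtgacgacc), and reads of such near-identical copies, Rpl36al and its parent Rpl36a included, cannot be assigned with certainty.

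The 82 genes spanned a wide range of levels. On the CPM scale, which for 3′ counts is not divided by transcript length, Rplp1, a P stalk protein that helps recruit elongation factors, had the highest mean over all libraries, 2692 CPM. The small subunit genes Rps21, Rps29 and Rps14 followed with 2174, 1650 and 1526 CPM and the large subunit gene Rpl37 with 1278 CPM. At the low end stood Rpl36al with 35.5, Rpl24 with 36.8, Rps19bp1 with 44.5, Rpl7l1 with 46.6 and Rpl10a with 52.3 CPM. The median was 467 CPM over large subunit genes, 577.5 over small subunit genes and 62.7 over the 5 paralogs. The members were short, with a median transcript length of 764 bases against 2495 for all genes of the table with an annotated length.

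Together the 81 genes that encode ribosomal proteins took up 3.98% ± 0.888 of all counts in the DS, 4.58% ± 0.32 in the Amy, 4.66% ± 0.845 in the LCtx, 4.83% ± 0.331 in the LH and 5.57% ± 0.856 in the NAc (SD over libraries). Without the DS libraries of run0194, which are described below, the DS held 4.52% ± 0.524. The values of Amy, LCtx and LH lay within 1 SD of each other. The mean log2 CPM over all libraries of a structure was highest in the NAc for 59 of the 82 genes and in the LH for 23, and lowest in the DS for 64, in the LCtx for 9, in the Amy for 5 and in the LH for 4. The place of the DS leaned on run0194: without it, the mean was lowest in the DS for 34 genes, in the LCtx for 21, in the Amy for 16 and in the LH for 11. The DS was sequenced in runs that held no other structure (run0090, run0194 and run0230), so a difference between the DS and the other structures cannot be told apart from a difference between runs, and no test between them was made. The genes with the widest range of mean log2 CPM between structures were Rpl24 (1.83), Rps27rt (1.02), Rpl38 (0.92), Rpl35 (0.88) and Rpl21 (0.87), and each of them had its lowest mean log2 CPM in the DS, where all runs were pooled. For Rps27rt the mean on the CPM scale was 73.8 in the DS and so above the 71.5 CPM of the Amy and the 71.6 CPM of the LH. Without run0194 the range of Rpl24 was 0.33 and that of Rps27rt 0.60, both then lowest in the Amy, and Rpl24 had 39.8 ± 5.86 CPM (SD) in the DS against 37.5 ± 5.88 in the Amy. The widest ranges were then those of Rps6 (0.76), lowest in the LCtx, and Rpl35 (0.75), lowest in the DS. In bulk tissue, fewer cells of a type and less RNA per cell cannot be told apart.

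**Figure D1:**
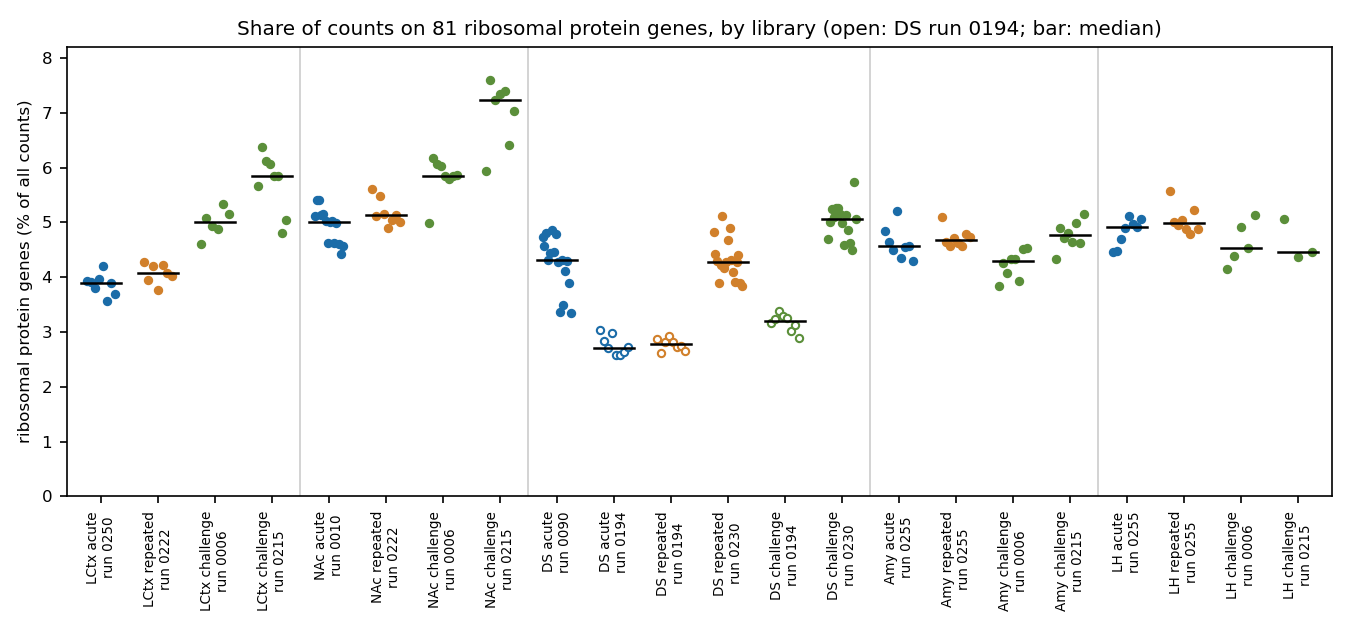
Share of all counts (y axis, %) that fell on the 81 ribosomal protein genes in each library, by structure, cocaine experience and sequencing run (x axis); points are libraries and bars medians. The open points of DS run0194 lie between 2.58% and 3.39%, in each experience below all filled points of the other DS runs.

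The DS libraries of run0194 stood apart. In acute mice the share of counts on ribosomal protein genes was 2.58% to 3.04% in run0194 (median 2.71%, n = 8) and 3.34% to 4.86% in run0090 (median 4.31%, n = 16). In repeated mice it was 2.62% to 2.93% in run0194 (median 2.78%, n = 8) and 3.84% to 5.12% in run0230 (median 4.27%, n = 17), and in challenge mice 2.89% to 3.39% (median 3.2%, n = 8) and 4.5% to 5.73% (median 5.06%, n = 15). Within each experience the groups did not overlap. The same 24 mice had been sequenced in both runs, so the run could be compared within mice: the share in run0194 was 0.604 to 0.739 times that in run0090 in 8 of 8 acute mice and 0.625 to 0.705 times that in run0230 in 16 of 16 repeated and challenge mice. Whether the second library of a mouse was a new preparation is not stated in the sources used here. The libraries of run0194 were also shallower, with a median total of 2338867 against 3594598 counts in the acute mice and 1691830 against 3446828 in the others.

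Between the 2 libraries of a mouse, 62 of the 82 genes were lower and 1 was higher in run0194 than in run0090 by edgeR's quasi-likelihood test with the mouse as a block. Here and below a gene was called when the Benjamini-Hochberg adjusted p over all genes tested was under 0.05 and the fold change over 1.2. Of the 11561 genes tested 28.0% were called lower and 29.1% higher, and the median log2 fold change was -0.66 over the 82 genes against 0.02 over all genes. Against run0230, 67 of the 82 genes were lower and 0 higher, where 8.92% of 11526 genes were called lower, with a median of -0.52 against -0.01. Taken alone, the repeated mice gave 65 lower genes and the challenge mice 70, where 7.65% of 11530 and 7.33% of 11336 genes were called lower. The comparisons shared 52 genes, 83.9% of the first list and 77.6% of the second, and used different mice but not independent runs, since run0194 was in both. By CPM, 60 of 82 genes were lower in every one of the 8 mice and 66 of 82 in every one of the 16. Among large subunit genes 32 and 36 of 43 were lower, among small subunit genes 22 and 25 of 30, and all 3 P stalk genes were lower in both comparisons.

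Rpl24, a large subunit protein at the bridge between the subunits, had almost no counts in run0194. It had 0 to 1.69 CPM in the acute mice of run0194 (median 0.459) and 30.3 to 46.7 CPM in the same 8 mice in run0090 (median 40.5). In the repeated and challenge mice it had 0 to 6.26 CPM in run0194 and 31.2 to 45.9 CPM in run0230. No library of run0194 came near any other: 13 of its 24 libraries held 0 counts, the highest held 11 and all 24 held 33 together, whereas the lowest count in any other library was 76 in the DS and 47 elsewhere. The fitted log2 fold changes of -5.93 and -5.51 depend on how such low counts are moderated, and Rpl24 was the only one of the 82 genes with a 0 in any library. Whether the reads of run0194 were counted on the same annotation of Rpl24 was not tested, so the values are of counts and not shown to be of mRNA.

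Rps27rt moved by very different amounts against the 2 other runs. In run0194 it had 8.5 to 15.7 CPM in acute mice (median 12.3), and the same mice had 142 to 251 CPM in run0090 (median 204). In repeated and challenge mice it had 20.1 to 55.6 CPM in run0194 (median 30.2) against 29.1 to 73.2 CPM in run0230 (median 43.8), with overlap between the groups but a lower value in 16 of 16 mice. The log2 fold change was -4.08 ± 0.07 (SE) against run0090 and -0.62 ± 0.09 against run0230 (edgeR adjusted p = 3.78e-67 and 3.38e-09). Outside the DS the structure means of Rps27rt were 71.5 to 108 CPM, so that the DS libraries of run0090 were above and those of run0194 below all 4 of these means.

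Rps19, a small subunit protein whose loss in humans causes Diamond-Blackfan anaemia, had 226 to 301 CPM in run0194 and 738 to 1140 CPM in run0090 in the acute mice. In the other mice it had 260 to 437 CPM in run0194 and 663 to 1123 CPM in run0230. The groups did not overlap in either case, and the log2 fold changes were -2.09 ± 0.04 and -1.27 ± 0.03 (edgeR adjusted p = 1.73e-69 and 5.4e-71). Rpl38, a large subunit protein known for its role in translating Hox mRNAs, fell by 1.95 and 0.92 on the log2 scale. Rps28 fell by 1.45 and 1.03, and Rpl27 by 1.36 and 1.27. Rpl37 and the paralog Rpl22l1, each with a log2 fold change of -1.02, were among the 6 largest decreases against run0230. Rpl36al fell by 1.7 on the log2 scale against run0090, from a median of 40.6 to 13.6 CPM, but its log2 fold change against run0230 was -0.06 ± 0.11 (edgeR adjusted p = 0.718).

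The gene called higher was Rps6, the small subunit protein that S6 kinase phosphorylates downstream of mTOR. It had 51.1 to 83 CPM in run0194 and 38.4 to 47.5 CPM in run0090 in the same 8 mice, without overlap (log2 fold change 0.57 ± 0.07, edgeR adjusted p = 4.12e-11). Against run0230 its log2 fold change was -0.34 ± 0.08, with 35.5 to 90 CPM in run0194 and 48.5 to 74.8 CPM in run0230, and it was lower in 15 of 16 mice. Rps3a1, another small subunit gene, also took opposite signs, with 0.04 ± 0.04 against run0090 and -0.81 ± 0.04 against run0230. Over the 82 genes the log2 fold changes ranged from -5.93 to 0.57 against run0090.

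**Figure D2:**
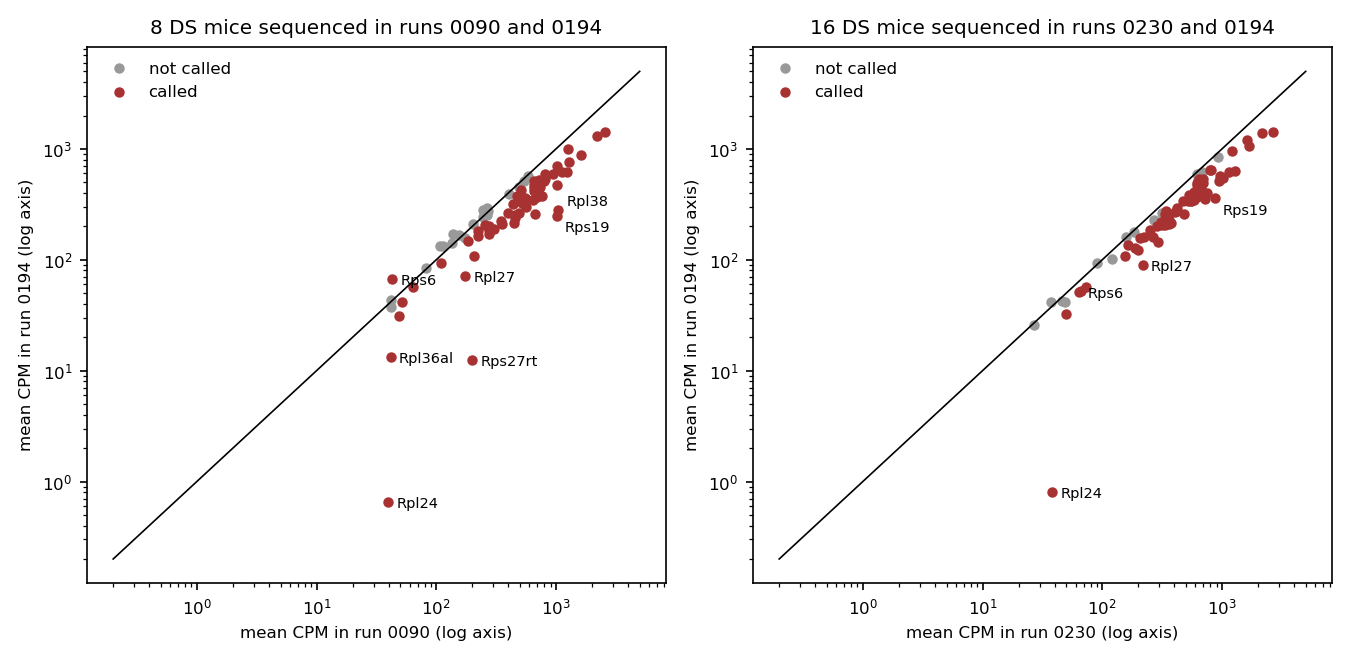
Mean CPM of the 82 genes in run0194 (y axis, log scale) against run0090 in 8 acute DS mice (left) and against run0230 in 16 repeated and challenge DS mice (right); each point is a gene, red where it was called, and the line marks equal levels. Most points lie below the line, Rpl24 and, on the left, Rps27rt farthest, and Rps6 lies above the line on the left.

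Other gene groups moved with the run as well. Among genes outside the list with transcripts of at most 600 bases the median log2 fold change was -0.57 against run0090 and -0.15 against run0230, where the ribosomal protein genes of that length had -0.72 and -0.67. Above 4000 bases the other genes had 0.25 and 0.05. Subunits of oxidative phosphorylation, the mitochondrial respiratory chain and ATP synthase, were lower for 60 of 79 genes (median -0.64) against run0090 and for 28 of 79 (median -0.17) against run0230. Mitochondrial ribosomal proteins were lower for 52 of 75 (median -0.44) and 11 of 75 (median -0.12). Rpsa, a ribosomal gene that the name rule left out, was lower in both comparisons. Genes outside the list that have the pyrimidine tract exactly at their start had medians of -0.05 and -0.01. Of the cell type markers, 6 of 8 for microglia (median -0.55), 5 of 10 for oligodendrocytes (-0.27) and 2 of 4 for blood cells (-0.41) were lower against run0090, with 1, 1 and 0 higher. Against run0230 all 4 blood cell markers tested were lower (-0.54), while 0 of 8 for microglia and 1 of 10 for oligodendrocytes were. Astrocyte markers were higher for 3 of 8 in both. Of 11 striatal markers 4 were lower and 1 higher against run0090, and 1 lower and 2 higher against run0230. Of 8 endothelial markers 3 were lower and 2 higher, and 0 lower and 1 higher. Of 2 choroid plexus markers tested 1 was lower in both (medians -2.91 and -2.81), and 1 was higher against run0090. Of 2 cortical excitatory markers tested 1 was lower against run0090 and 1 higher against run0230. The part of these cell types, of transcript length, depth or library preparation in the difference between runs was not tested.

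A smaller run difference was present in challenge mice at 0 hr that had a library in run0006 and run0215. The share of counts on ribosomal protein genes was 3.83% and 4.34% in the Amy, 4.6% and 5.67% in the LCtx, 4.14% and 5.06% in the LH and 4.98% and 5.94% in the NAc, with run0006 first. It was higher in run0215 in each of these 4 samples, by 1.13 to 1.23 times.

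The DS libraries of run0194 came from all 3 cocaine experiences and so allowed them to be compared within 1 run, with 8 mice each. The question was whether repeated exposure, or a challenge after abstinence, left ribosomal protein mRNAs at another level than a first exposure. After a challenge 28 of the 81 genes tested were higher and 1 was lower than in acute mice, where 9.77% of 11210 genes were called higher and 8.06% lower, and the median log2 fold change was 0.21 against 0.01 over all genes. Against repeated mice 16 were higher and 0 lower, where 2.07% of genes were called higher, with a median of 0.21 against 0.00. Repeated mice differed from acute mice in both directions, with 9 genes higher and 7 lower, where 8.01% and 6.25% of genes were called, and a median of -0.02. Rpl24 was too low in this run to be tested.

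Rps26, a small subunit protein at the mRNA exit channel, had 338 to 389 CPM in the 8 acute mice (median 361), 520 to 619 CPM in the 8 repeated mice (median 548) and 506 to 706 CPM in the 8 challenge mice (median 622). All repeated and challenge mice were above all acute mice, and the log2 fold changes were 0.63 ± 0.05 and 0.80 ± 0.05 (edgeR adjusted p = 4.33e-16 and 6.38e-21). Rps19 had 226 to 301, 260 to 361 and 337 to 437 CPM in acute, repeated and challenge mice, so that acute and challenge mice did not overlap (log2 fold change 0.68 ± 0.06, edgeR adjusted p = 4.53e-14). Rps27rt had 8.5 to 15.7, 20.1 to 33.1 and 26.6 to 55.6 CPM, and the medians of Rpl36al were 13.6, 23 and 28 CPM. Rps27rt was 1.09 ± 0.17 and Rpl36al 0.71 ± 0.19 higher on the log2 scale in repeated than in acute mice. In challenge mice these 2 paralogs had the largest increases of the list, 1.60 ± 0.17 and 1.12 ± 0.19. Against repeated mice the largest increases in challenge mice were in Rps27rt (0.51), Rpl35 (0.40), Rps28 (0.39), Rpl38 (0.37) and Rpl37a (0.36).

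Rps3a1 had 253 to 338 CPM in acute mice (median 287), 185 to 221 CPM in repeated mice (median 196) and 192 to 279 CPM in challenge mice (median 227). Acute and repeated mice did not overlap (log2 fold change -0.53 ± 0.06, edgeR adjusted p = 1.5e-09). It was the gene called lower in challenge mice, at -0.31 ± 0.06. Rps6 fell by 0.48 on the log2 scale in repeated mice, from a median of 66.1 to 49.5 CPM, with overlap between the groups. Rpl6 (-0.35), Rpl22l1 (-0.34) and Rplp2 (-0.34), the other acidic protein of the P stalk, completed the largest decreases.

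These differences were not the same in the other libraries of the same mice, where acute mice were in run0090 and repeated and challenge mice in run0230, so that experience and run cannot be told apart. There the comparison of repeated with acute mice called 8 genes higher and 23 lower, where 24.1% and 21.9% of 12152 genes were called. None of these (0 of 31) was called in the same direction in run0194, while 6 genes were higher in run0194 and lower in the others and 4 the reverse. Rps26 had a log2 fold change of -0.15, Rps27rt of -2.58, Rps3a1 of 0.30 and Rps6 of 0.55 there. For challenge against acute mice 26 genes were higher and 5 lower there, where 23.4% and 22.8% of genes were called. Of these, 4 genes were called higher in both sets, 4 were higher in run0194 and lower in the others, and 1, Rps3a1, was the reverse with 0.54. Challenge and repeated mice, which shared run0230 on that side as well, gave 41 genes higher and 0 lower there, where 5.30% of genes were called higher, and 13 of the 16 genes called higher in run0194 were among them. The 2 sets hold the same mice and so do not replicate the animals.

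The repeated mice of these comparisons were 1 of 2 cohorts, and the cohorts differed within run0230. The share of counts on ribosomal protein genes was 3.84% to 4.29% in the 8 repeated mice compared so far and 4.22% to 5.12% in the 9 mice of the other repeated cohort (exp16 in the labels), which overlapped the 4.5% to 5.73% of the challenge mice. Between the cohorts 23 of 82 genes were higher and 0 lower in exp16, where 2.92% of 11778 genes were called higher, with a median log2 fold change of 0.20 against -0.01. Rps15 (0.39 ± 0.06), Rpl39 (0.36 ± 0.05) and Rpl12 (0.35 ± 0.05) led (edgeR adjusted p = 1.48e-06 for Rpl39, the highest of the 3). Against exp16, challenge mice of run0230 had 4 genes higher (Rps27rt, Rpl36al, Rpl39 and Rpl38) and 0 lower in place of 41, where 6.04% of 12055 genes were called higher, with a median of 0.10. The increase after a challenge over repeated exposure thus depended on the repeated cohort it was set against, and run0194 held no exp16 mouse.

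**Figure D3:**
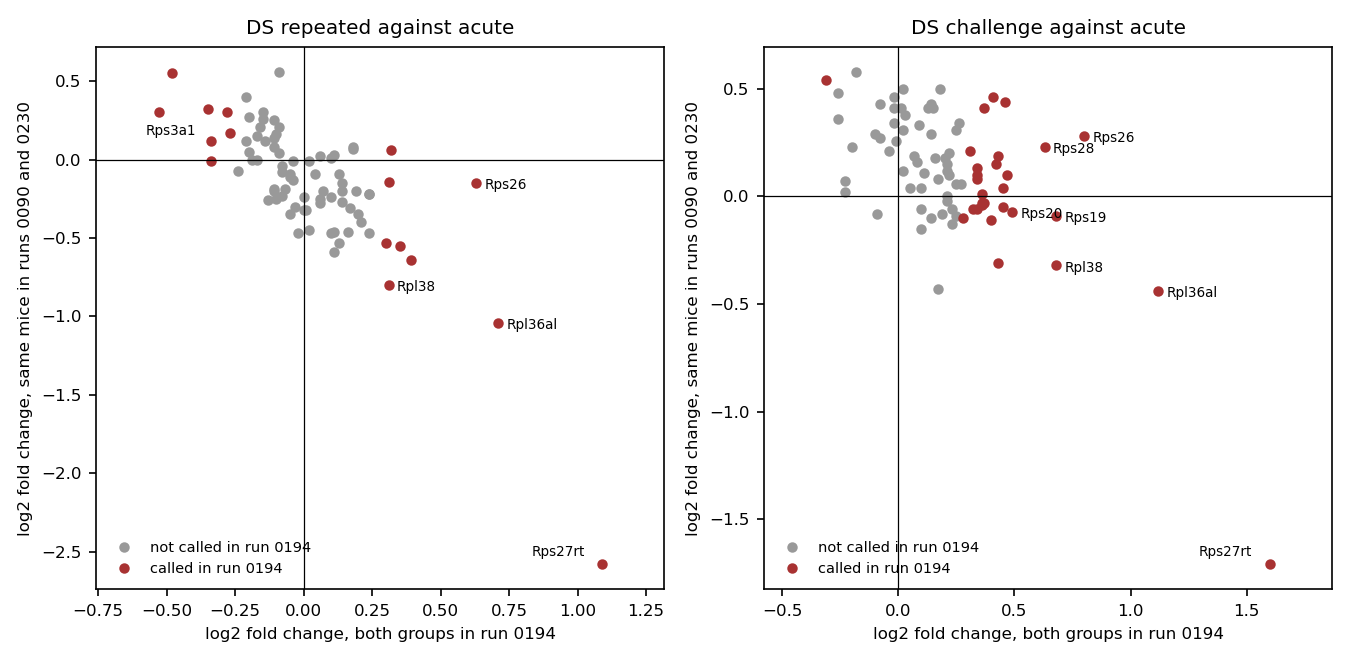
Log2 fold changes of 81 genes in the DS for repeated against acute (left) and challenge against acute mice (right), with both groups in run0194 on the x axis and libraries of the same mice from run0090 and run0230 on the y axis; red points were called in run0194. Rps27rt, Rpl36al, Rps19 and Rpl38 lie right of 0 on the x axis and below 0 on the y axis in both panels, and Rps3a1 lies at the opposite corner.

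Within run0194, challenge mice also differed from acute mice in other cell type markers. Of 10 oligodendrocyte markers 8 were lower in challenge than in acute mice (median log2 fold change -0.47), with summed levels of 7483 to 10778 CPM in challenge and 12224 to 13974 CPM in acute mice. The 4 blood cell markers tested, of 9 on the list, were all higher (median 0.64), with summed levels of 337 to 819 CPM and 267 to 348 CPM. Genes outside the list with transcripts of at most 600 bases had a median of 0.33 and oxidative phosphorylation subunits were higher for 36 of 78 (median 0.26). The part of these in the difference between experiences was not tested. Leaving out single libraries left 28 to 33 genes called between challenge and acute mice, and leaving out all libraries of a number 24 to 36. Between challenge and repeated mice the count fell from 16 to 9 without repeated 0 hr replicate 4 and to 10 without challenge 2 hr replicate 1. It was 7 without all libraries numbered 1 and 28 without those numbered 2, 3 with the replicate number as a block and 4 with the 0 hr mice alone.

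Few ribosomal protein genes were called between acute and repeated mice in the Amy and LH, where both were sequenced in run0255 (8 mice each). By adjusted p alone (edgeR, under 0.05), 28 of 82 differed in the Amy, where 2224 of 11980 genes did. In the LH 23 of 82 did, where 1318 of 12040 genes did. In the Amy 4 were higher and 3 lower after repeated exposure, where 4.73% and 4.56% of genes were called (median log2 fold change 0.04), and in the LH 2 were higher and 2 lower, where 2.02% and 2.82% were called (median 0.07). Rpl10, an X-linked large subunit protein that is among the last to join the ribosome, had 131 to 201 CPM in acute mice (median 177) and 119 to 129 CPM in repeated mice (median 128) in the Amy. In the LH it had 190 to 217 CPM and 124 to 161 CPM (medians 207 and 154). The groups did not overlap in either structure, and the log2 fold changes were -0.43 ± 0.06 and -0.44 ± 0.05 (edgeR adjusted p = 3.58e-06 and 2.63e-08).

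Rpl15, a large subunit protein, behaved alike, with 87.6 to 116 CPM in acute and 63.9 to 81.5 CPM in repeated mice in the Amy and 85.9 to 102 CPM against 65.9 to 80.7 CPM in the LH. Its log2 fold changes were -0.37 ± 0.07 and -0.35 ± 0.06, again without overlap. The Amy and LH came from the same mice and the same run, so these are not independent observations. At 0 hr in the NAc and LCtx the corresponding log2 fold changes of Rpl10 were each -0.39 (edgeR adjusted p = 0.372 and 0.177), and in the DS of run0194 that of Rpl10 was -0.09 ± 0.09. Rps6 was lower in the Amy (-0.27 ± 0.09), and its log2 fold change of -0.22 in the LH stayed under the fold limit. Rpl41, the shortest ribosomal protein, was higher in both structures (0.27 ± 0.04 and 0.26 ± 0.04), Rpl24, Rpl36 and Rpl28 in the Amy (0.30, 0.29 and 0.27) and Rpl37a in the LH (0.30). In the Amy, 9 of 11 striatal markers were lower in repeated mice (median log2 fold change -0.65). There 2 of 4 blood cell, 2 of 8 endothelial and 2 of 4 cortical excitatory markers were higher. Oligodendrocytes, astrocytes and choroid plexus had 1 lower marker each. In the LH 2 of 10 striatal, 2 of 4 cortical excitatory and 1 of 4 choroid plexus markers were lower. There 1 of 8 endothelial and 1 of 8 microglial markers were higher, and astrocytes had 1 in each direction. The part of these cell types was not tested.

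At 0 hr, before any cocaine on the day, the baseline of repeated and of abstinent mice was compared with that of naive mice in each structure, with 2 mice a group and 3 abstinent mice in the Amy, in the libraries that the study marked for this purpose, completed by the other abstinent mice in the NAc and Amy. In the LCtx 71 of 82 genes were higher and 1 lower in abstinent than in naive mice, where 4.45% and 3.91% of genes were called, and the median log2 fold change was 0.66 against -0.01 over all genes. Rpl36 had 308 and 317 CPM in the naive mice and 669 and 708 CPM in the abstinent mice, and Rpl35 91.6 and 83.3 CPM against 178 and 209 CPM. Naive and abstinent mice were far apart in both genes. The log2 fold changes were 1.2 ± 0.11 for Rpl36, 1.2 ± 0.13 for Rpl35, 1.16 ± 0.11 for Rps23, a small subunit protein at the decoding centre, and 1.15 ± 0.10 for Rpl41 (edgeR adjusted p = 1.18e-08 for Rpl35, the highest of the 4). Rps27rt fell by 0.51 on the log2 scale.

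The naive LCtx mice were in run0250 and the abstinent ones in run0215, so the run and the abstinence cannot be told apart. For Rpl36 the library of 1 of the same abstinent mice in run0006 had 393 CPM, against 669 CPM in run0215, and the third naive mouse had 310 CPM. The naive LCtx libraries also held more RNA of blood cell genes: the 9 blood cell markers summed to 10526 to 14819 CPM in them and to 520 to 740 CPM in the abstinent ones, and all 9 were called lower (median log2 fold change -4.91). Markers of other cells were higher in the abstinent mice: 8 of 11 striatal markers (median log2 fold change 0.88), the choroid plexus gene Ttr (8.38), 2 of 8 astrocyte markers with 1 lower, among them Gfap (1.02), and 2 of 8 microglial markers, among them C1qb (0.67). Lower were 2 of 5 markers of cortical excitatory neurons, Tbr1 (-0.51) and Nrgn (-0.30), and 1 of 10 oligodendrocyte markers, Cldn11 (-0.69). Other genes with transcripts of at most 600 bases had a median of 0.35, and 43 of 81 oxidative phosphorylation subunits were higher (median 0.37). The repeated mice, in run0222, held as little of it as the abstinent ones (median 536 CPM for the 9 markers), and in them 1 of the 82 genes, Rps6, was called against the same naive mice, where 1.05% of genes were called lower, with a median of 0.03. The repeated mice also had 6 of 11 striatal markers (median 1.03), 3 of 8 endothelial markers (median 0.54) and Ttr (7.18) higher than the naive mice. In the abstinent mice 1 of 8 endothelial markers was higher (median 0.14). The part of the run and of these cell types in the difference was not tested.

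Rps6 was also the gene that fell in the NAc after repeated exposure, where 0.0327% of genes were called lower. It had 57.7 and 80.9 CPM in the naive mice of the fit and 40.9 and 32.3 CPM in the repeated mice, and 74.2 and 61.9 CPM in the other naive mice. In the LCtx it had 45.3 and 54.7 CPM in naive and 34.8 and 28.1 CPM in repeated mice. No repeated mouse reached a naive mouse in either structure. Log2 fold changes were -0.92 ± 0.18 (NAc, edgeR adjusted p = 0.0407) and -0.69 ± 0.18 (LCtx, edgeR adjusted p = 0.0357), and in both the naive and the repeated mice were in different runs. The call in the NAc was lost with the replicate number as a block (-0.6), without the libraries numbered 2 (-0.76) and without those numbered 3 (-0.64). In abstinent mice of the NAc 4 genes were higher and 0 lower, where 1.22% of genes were called higher, namely Rpl27, Rpl10, Rps4x and Rpl3 with log2 fold changes of 0.5, 0.5, 0.43 and 0.36. With the replicate number as a block 0 of these 4 were called, and without the libraries numbered 3 there were 2 calls. The naive mice were in run0010 and the abstinent ones in run0006 and run0215, so the run and the abstinence cannot be told apart, and the 1 NAc mouse with a library in both of the latter runs had a share of 4.98% and 5.94%. With all 4 naive mice in the fit, 21 calls were made in the NAc in place of these 5. Of these, 17 were higher in abstinent mice, where 4.65% of 12362 genes were then called higher, and in repeated mice 1 was higher and 3 were lower, where 0.550% and 0.680% were called.

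In the LH, where naive and repeated mice shared run0255, 19 of 82 genes were higher and 0 lower at 0 hr, where 1.04% of genes were called higher, and the median log2 fold change was 0.24 against 0.00. Rps29, a zinc-binding small subunit protein, had 1303 CPM in each naive mouse and 1963 and 1750 CPM in the repeated mice (log2 fold change 0.56 ± 0.07, edgeR adjusted p = 0.000628). Rpl28 had 320 and 337 CPM against 483 and 447 CPM (0.55 ± 0.08), Rpl41 877 and 904 CPM against 1287 and 1163 CPM (0.51 ± 0.07) and Rpl24 37.9 and 33.8 CPM against 60.7 and 51.2 CPM (0.69 ± 0.16). The share of counts on ribosomal protein genes was 4.45% and 4.48% in the naive and 5.57% and 5.01% in the repeated mice, and 23 of 80 oxidative phosphorylation subunits were higher as well (median 0.25). Of the markers tested, 1 of 4 for cortical excitatory neurons (median -0.76), 1 of 4 for choroid plexus (-0.31) and 1 of 10 for striatal neurons (-0.16) were lower. No cell type marker was called higher, and their part was not tested. Without naive replicate 1 the count was 10, and without repeated replicate 2 it was 44. Over all 4 time points 2 genes were called higher in the LH, Rpl37a and Rpl41. The abstinent LH group held 1 mouse and was not tested.

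In the DS, within run0194, 1 gene was higher (Rps26) and 4 were lower (Rps3a1, Rps18, Rps27a and Rplp2) in repeated mice at 0 hr, where 0.741% and 0.593% of genes were called. In abstinent mice 10 were higher and 1 lower, where 1.55% and 1.02% were called, led by Rps27rt (1.5 ± 0.34) and Rps26 (0.71 ± 0.10). Without the libraries numbered 1, 2, 3 and 4, the first 2 numbers being 1 abstinent library each, 5, 3, 4 and 1 genes were called in abstinent mice in place of these 11. The 5 calls in repeated mice became 0 without number 3 and 1 without number 4. In abstinent mice 6 of 10 oligodendrocyte markers were lower (median log2 fold change -0.55), among them Mbp (-0.91) and Cldn11 (-0.85), and 1 of the 4 blood cell markers tested was higher (median 0.56), and their part was not tested. Rps26 had 373 and 359 CPM in naive, 619 and 521 CPM in repeated and 610 and 576 CPM in abstinent mice of run0194. In the other libraries the 4 naive mice had 508 to 589 CPM in run0090 and the repeated and abstinent mice 492 to 612 and 687 to 736 CPM in run0230, so that naive and repeated mice overlapped there. In the Amy no gene was called after repeated exposure (0 of 82 by edgeR, 11 at an unadjusted p under 0.05) in the fit with all 3 groups. The same naive and repeated mice fitted without the abstinent ones gave 2 genes higher and 1 lower, where 0.829% and 0.531% of 12064 genes were called, namely Rpl18 and Rpl41 (log2 fold change of Rpl41 0.31) and, as the lower gene, Rpl10 (-0.49). After abstinence 1 gene was lower in the Amy, Rps9 at -0.34 ± 0.09, where 1.78% of genes were called lower. The naive Amy mice were in run0255 and the abstinent ones in run0006 and run0215, so here too the run and the abstinence cannot be told apart.

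After cocaine, ribosomal protein genes moved little within hours, and most of the changes called were decreases in the NAc and DS after a first dose, with 1 increase in the LH. In the NAc of acute mice, all in run0010, 21 of 82 genes were called by an F test over 1, 2 and 4 hr against 0 hr, all of them lower, where 0.265% of 12448 genes were called lower. At 4 hr taken alone 28 were lower, the 21 among them, where 0.41% of genes were called lower, and the median log2 fold change was -0.23 over the list and 0.00 over all genes. At 1 and 2 hr no gene was called (16 and 37 at an unadjusted p under 0.05), with medians of -0.09 and -0.12. Of the 28 genes 16 belong to the small subunit, 11 to the large subunit and 1, Rpl22l1, is a paralog.

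Rps15a, a small subunit protein, had 446, 478, 463 and 451 CPM at 0 hr and 437, 417, 406 and 421 CPM at 1 hr. At 2 hr it had 373, 359 and 438 CPM and at 4 hr 354, 364 and 362 CPM. All mice at 4 hr were below all mice at 0 and 1 hr (log2 fold change at 4 hr -0.38 ± 0.06, edgeR adjusted p = 0.00212). Rpl39, which lines the exit tunnel for the nascent protein, had 522 to 582 CPM at 0 hr, 473 to 539 CPM at 1 hr, 440 to 473 CPM at 2 hr and 425 to 443 CPM at 4 hr (-0.36 ± 0.06, edgeR adjusted p = 0.00187). Rpl37 had 1239 to 1402 CPM at 0 hr and 1035 to 1138 CPM at 4 hr (-0.36 ± 0.06), again without overlap. Rps7 and Rps27 followed with -0.35 and -0.34. The summed share was 5.11% to 5.41% at 0 hr and 4.43% to 4.61% at 4 hr.

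Single mice moved the count in the NAc. Leaving out single libraries left 5 to 23 of the genes called by the F test, with 5 without 4 hr replicate 2, 7 without 0 hr replicate 2 and 12 without 0 hr replicate 3, and without all libraries numbered 2 the count was 0. At 4 hr other genes with transcripts of at most 600 bases had a median log2 fold change of -0.16, 6 of 80 oxidative phosphorylation subunits were lower, and 0 of 39 translation factors and 0 of 42 ribosome assembly factors were called. Endothelial markers summed to 274 to 303 CPM at 0 hr and to 339 to 378 CPM at 4 hr, with 0 of 8 called (median log2 fold change 0.43). In the F test 1 of 3 choroid plexus markers was lower (median -0.33), and the part of either cell type was not tested. As a check of the response itself, 9 of 10 immediate-early genes were higher at 1 hr in the NAc and in the DS.

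In the DS of acute mice, in run0090, 10 of 82 genes were called by the F test and all of them were lower, where 0.386% of 12186 genes were called lower. Rps14, a small subunit protein at the platform of the subunit, had 1409, 1411, 1486 and 1336 CPM at 0 hr and 1244, 1453, 1308 and 1458 CPM at 1 hr. At 2 hr it had 1190, 970, 1249 and 1004 CPM and at 4 hr 1145, 1206, 1099 and 958 CPM. All values at 2 and 4 hr were below all values at 0 hr. At 2 hr it was the 1 gene called on its own, where 0.0985% of genes were called lower (log2 fold change -0.37 ± 0.09, edgeR adjusted p = 0.0442), and in the 8 libraries of run0194 it fell by 0.35 ± 0.06 at 2 hr (edgeR adjusted p = 0.00166), where 0.0255% of genes were called lower. Rpl35, a large subunit protein at the tunnel exit, had 63.5 to 87.8 CPM at 0 hr and 46.2 to 61.5 CPM at 2 hr (-0.52 ± 0.13). Rpl37a, Rps18 and Rpl41 reached -0.40, -0.36 and -0.36.

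The DS medians were 0.03, -0.26 and -0.23 at 1, 2 and 4 hr, and at 4 hr taken alone no gene was called, although 60 had an unadjusted p under 0.05. The run0194 libraries gave medians of -0.02, -0.18 and -0.12 in 8 of the same mice, and 4 genes called by the F test, where 0.128% of 11756 genes were called lower. Single libraries moved the count in run0090 from 10 to between 1 and 34. It was 34 and 33 without 2 hr replicates 3 and 1, 21 without 0 hr replicate 1 or 4 or without 4 hr replicate 2, and 5 without 1 hr replicate 1 or 3 or without 4 hr replicate 3. It was 3 without 0 hr replicate 3, 2 without 1 hr replicate 4 or 2 hr replicate 2 or 4, and 1 without 1 hr replicate 2. The lists of the NAc and the DS shared Rpl26, Rpl34, Rpl39, Rps14 and Rps25, which is 23.8% of the first and 50% of the second, and by their animal numbers all 14 NAc mice were among the 16 DS mice. Endothelial markers summed to 248 to 332 CPM at 0 hr and 367 to 389 CPM at 4 hr, with 3 of 8 called higher by the F test (median log2 fold change 0.5), 1 of 8 at 2 hr (0.43) and 1 of 8 at 4 hr (0.48), and their part was not tested.

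**Figure D4:**
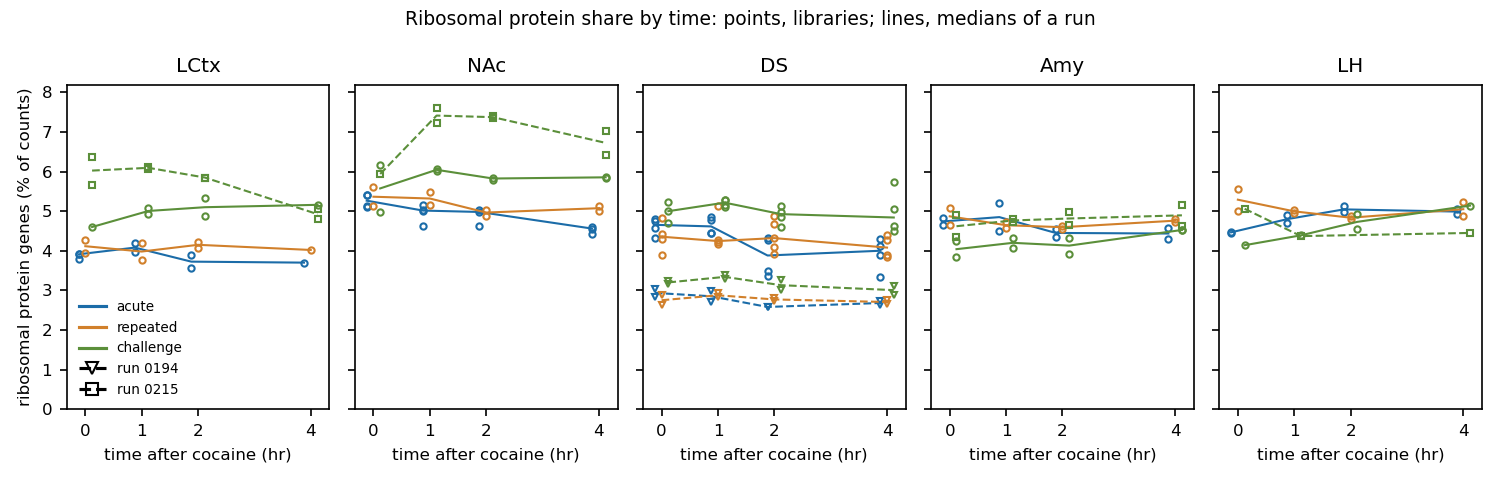
Share of all counts on the 81 ribosomal protein genes (y axis, %) at 0, 1, 2 and 4 hr after cocaine (x axis) in the 5 structures; points are libraries, lines join medians within an experience and run, and dashed lines mark run0194 and run0215. The acute NAc line falls from 5.26% at 0 hr to 4.56% at 4 hr, and the acute DS line of run0090 from 4.65% at 0 hr to 3.88% at 2 hr.

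In repeated and challenge mice no time course called any of the 82 genes in any structure by edgeR, with 0 to 16 genes at an unadjusted p under 0.05, and in acute mice of the LCtx and Amy none was called either (4 and 16). In the acute LH 1 gene was called, where 0.12% of genes were called higher: Rps29 had 1303 CPM in each mouse at 0 hr, 1441 and 1501 CPM at 1 hr, 1608 and 1563 CPM at 2 hr and 1562 and 1613 CPM at 4 hr (log2 fold change 0.28 at 2 and 4 hr, edgeR adjusted p = 0.00534). In that LH time course 42 of the 82 genes had an unadjusted p under 0.05 and 78 had a log2 fold change above 0, with a median of 0.19 against -0.05 over all genes. The median share of counts on ribosomal protein genes there was 4.47% at 0 hr, 4.8% at 1 hr, 5.05% at 2 hr and 4.99% at 4 hr. In the same mice 2 of 4 markers of lateral hypothalamus neurons, Pmch (-0.41) and Hcrt (-0.34), were lower (median -0.25), as was the choroid plexus gene Ttr (-1.35), 1 of 4 tested, and 1 of 8 endothelial markers was higher (median 0.28), and their part was not tested. Whether the acute response differed from that of repeated or challenge mice was tested as an interaction at 2 and 4 hr, and none of the 82 genes was called in the NAc or the DS. At an unadjusted p under 0.05 there were 0 and 14 genes in the NAc against repeated and 40 and 47 against challenge mice, and in the DS 44 and 8 against repeated and 41 and 38 against challenge mice, at 2 and 4 hr. The decrease was thus not shown to be particular to acute mice, which were also in other runs.

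Between structures of the same mice in 1 run, the NAc held more ribosomal protein mRNA than the LCtx. In 7 repeated mice of run0222, 57 of 82 genes were higher and 0 lower in the NAc, where 19.6% of 11896 genes were called higher, and the median log2 fold change was 0.32 against 0.02 over all genes. By CPM, 74 genes were higher in each of the 7 mice, and for 65 the 2 structures did not overlap. Higher genes were 25 of 30 in the small subunit, 27 of 43 in the large subunit, 2 of 3 in the P stalk and 3 of 5 among the paralogs. Rpl31 had 1367 to 1544 CPM in the NAc and 888 to 1056 CPM in the LCtx, Rpl30 880 to 1012 CPM and 576 to 660 CPM, and Rps27 1214 to 1513 CPM and 774 to 991 CPM. The log2 fold changes were 0.59 ± 0.04, 0.57 ± 0.04 and 0.59 ± 0.04 (edgeR adjusted p = 4.8e-13, 3.58e-13 and 9.69e-13), followed by Rps12 with 0.55 and Rpl35a with 0.54.

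In challenge mice of run0006 and run0215, fitted together with run and mouse as terms, 30 genes were higher and 0 lower in the NAc than in the LCtx, where 21.7% of 12631 genes were called higher (median 0.23). Of these, 29 were among the 57, which is 96.7% of the shorter and 50.9% of the longer list, and these were other mice and other runs. Rpl30 (0.55 ± 0.04), Rpl31 (0.54 ± 0.04) and Rps27 (0.49 ± 0.05) again led. Translation factors, by contrast, had a median of 0.04 in run0222, with 6 of 39 higher and 1 lower, and mitochondrial ribosomal proteins of 0.10, with 12 of 75 higher. Oxidative phosphorylation subunits had a median of 0.22 there, with 24 of 79 higher and 0 lower. The cell makeup of the structures differed: all 10 oligodendrocyte markers (median 2.05) and all 11 striatal markers (median 3.25) were higher and all 5 markers of cortical excitatory neurons were lower (median -2.81) in the NAc. Other genes with transcripts of at most 600 bases had a median of 0.20 against 0.39 for ribosomal protein genes of that length, and the part of either was not tested.

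**Figure D5:**
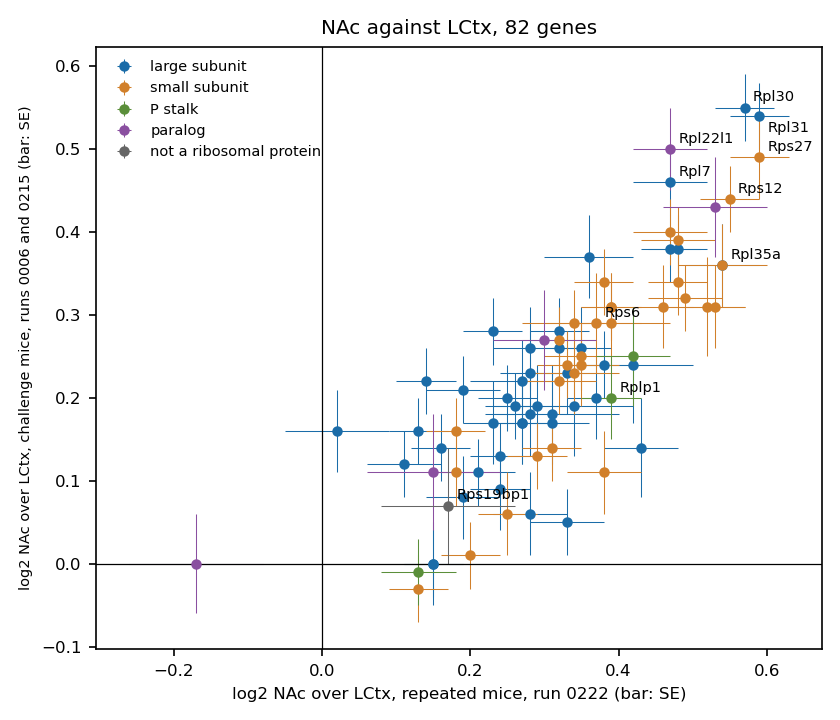
Log2 fold change of NAc over LCtx for the 82 genes in 7 repeated mice of run0222 (x axis) and in challenge mice of run0006 and run0215 (y axis); points are genes coloured by role and bars the standard error. Nearly all points lie right of and above 0, with Rpl30, Rpl31 and Rps27 at the upper right.

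Few ribosomal protein genes were called between the Amy and the LH, mostly because of the fold limit. By adjusted p alone (edgeR, under 0.05), 61 of 82 differed in run0255, where 7784 of 12041 genes did, and 68 of 82 were below 0. In 16 mice of run0255, 2 genes were higher and 11 lower in the Amy, where 22.8% and 21.9% of genes were called, and the median log2 fold change was -0.12. In challenge mice 4 were higher and 13 lower, where 22.3% and 21.9% were called, and 9 of the lower genes were shared. Rps2, a small subunit protein at the mRNA entry channel, had 596 to 739 CPM in the Amy and 455 to 528 CPM in the LH, without overlap (0.43 ± 0.03, edgeR adjusted p = 3.53e-18). Rplp1 had 2723 to 3426 CPM in the Amy and 2158 to 2842 CPM in the LH, overlapping in range but higher in 16 of 16 mice (0.32 ± 0.03). Rpl22l1 had 210 to 285 CPM in the Amy and 306 to 382 CPM in the LH, also without overlap (-0.49 ± 0.04), and Rps6 31.8 to 74.3 CPM and 66.6 to 96.2 CPM (-0.53 ± 0.05). The 2 other paralogs called in run0255, Rps27l (-0.40) and Rpl36al (-0.39), were also lower in the Amy. All 10 oligodendrocyte markers were lower in the Amy than in the LH (median -1.43).

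Against the LCtx, the Amy of challenge mice had 46 of 82 genes lower and 0 higher, where 17.6% of genes were called lower (median -0.27). Rpl36 (-0.64 ± 0.06), Rpl28 (-0.62 ± 0.06), Rpl35 (-0.59 ± 0.06), Rplp2 (-0.56 ± 0.06) and Rpl41 (-0.53 ± 0.04) had the largest decreases (edgeR adjusted p = 2.87e-13 for Rpl35, the highest of the 5). All 3 P stalk genes, 26 of 43 large subunit genes and 16 of 30 small subunit genes were lower, but none of the 5 paralogs. In challenge mice the median share of counts on ribosomal protein genes in run0006 and run0215 was 5.86% and 7.23% for NAc, 5% and 5.85% for LCtx and 4.29% and 4.76% for Amy. Outside the DS, acute mice had their highest medians in the NAc (5.01%) and the LH (4.91%) and their lowest in the LCtx (3.9%), with the LCtx and NAc each in a run of its own.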

How the data were processed

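The deposited counts were made by the authors from 3′ RNA-seq reads: PCR duplicates were removed by their molecular identifiers and polyA ends trimmed, and per the submitters' processing notes reads were aligned to GRCm38 with STAR and counted per gene with HTSeq (versions not given in the sources used here). The counts are whole numbers per gene and library, not scaled. CPM were computed here from the column totals. Genes were fitted with edgeR 4.0.16 (TMM factors, filterByExpr, glmQLFit and glmQLFTest, R 4.3.3), with p-values adjusted by Benjamini and Hochberg over all genes tested, and a gene was called at an adjusted p under 0.05 with a fold change over 1.2. Libraries of the same mouse were compared with the mouse as a block, and structures likewise. Time courses were tested within 1 experience by an F test over 1, 2 and 4 hr against 0 hr. Baseline fits used the 0 hr libraries that the study marks for it and, in the NAc and Amy, the abstinent mice not so marked, with libraries of 1 mouse summed.

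Replicates are mice. p-values measure the spread between these samples. The members and gene lists were chosen with earlier results of these data known. The genes named were, in each comparison, the 5 calls farthest up and the 5 farthest down, those with the highest, lowest and most variable levels, and the ribosomal genes that the name rule leaves out. Same-numbered samples were checked for pairing by the correlation of their deviations from group means, and 67 of 221 pairs exceeded 0.1, so that numbers were not taken to pair mice across times. DESeq2 1.42.0, other scaling, no filter on low counts, a replicate block and leaving out libraries were tried as alternatives. The scripts were tested on simulated counts. Start windows came from RefSeq (GRCm38.p6), and transcript lengths from GENCODE. Results for some genes are not reported here.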

Additional observations from a re-analysis of the deposited data

Results flagged for a closer look

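Among 13 groups of 4 to 10 libraries of 1 structure, experience, time and run, 1 held a library whose share of counts on ribosomal protein genes stood apart from the others, and chance alone gives about 1 in 20 groups. In the DS of repeated mice at 1 hr in run0230 the shares were 4.22%, 5.12%, 4.17% and 4.27%, and the library at 5.12% was the highest of all repeated DS libraries of that run. The first 2 of these libraries came from the cohort exp16 and the last 2 from exp17, and shares in exp16 were 4.22% to 5.12% against 3.84% to 4.29% in exp17 over all times, so the 4 libraries were not of 1 homogeneous group.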

How the results depend on the processing

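Of the counts of genes called under other settings, 234 stayed within 1.5 times the reported one and 66 did not, and of the values of named genes 1518 kept direction and call, 235 kept the direction without the call and 22 turned. Leaving out replicates gave 62 to 65 genes against run0090, 66 to 70 against run0230, 52 to 61 between NAc and LCtx and 13 to 14 between Amy and LH. Over the challenge structure contrasts together it gave 91 to 96, but the single contrasts moved more. For NAc against LCtx 20 genes were higher without replicate 3 and 45 without replicate 1. For Amy against LH 7 were higher and 7 lower without replicate 1 (median log2 fold change 0.01). Without replicate 2 these were 1 and 27 (median -0.2). For Amy against LCtx 53 were lower without replicate 3 and 35 without replicate 4. The LCtx baseline gave 56 to 74.

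Leaving out replicates or single mice gave 8 to 17 genes between repeated and acute DS mice of run0194 (8 without replicate 4), 24 to 36 between challenge and acute and 7 to 28 between challenge and repeated (7, 28 and 9 without replicates 1, 2 and 4). It gave 4 to 13 in the Amy (13 without replicate 2) and 2 to 6 in the LH between repeated and acute mice. At 0 hr the ranges were 2 to 6 (NAc, 2 without replicate 3), 2 to 11 (DS, 2 without replicate 4), 0 to 3 (Amy, 0 without replicate 1) and 10 to 44 (LH). The time courses ranged from 0 to 23 in the NAc and from 0 to 37 in the DS (37 without replicate 1, 0 without replicate 2 or 4), and stayed at 0 in the LCtx and Amy. These counts come from fewer mice, and other causes were not tested.

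With the 0 hr mice alone the counts were 5, 11 and 4 for the DS comparisons in run0194 (repeated and challenge against acute, challenge against repeated), 3 in the Amy and 19 in the LH. Libraries of the same mice in run0090 and run0230 gave 31 for repeated against acute and 41 for challenge against repeated, and the other repeated cohort in run0230, added after seeing the data, gave 4 for the latter, where Rpl35 turned to -0.02. In the libraries of the same mice, for repeated against acute mice, the log2 fold changes turned to 0.3 for Rps3a1, 0.55 for Rps6, 0.32 for Rpl6 and 0.12 for Rpl22l1, and to -0.55 for Rps19, -0.64 for Rps19bp1, -0.15 for Rps26, -1.04 for Rpl36al and -2.58 for Rps27rt. For challenge against acute they turned to 0.54 for Rps3a1, -0.32 for Rpl38, -0.09 for Rps19, -0.44 for Rpl36al and -1.71 for Rps27rt. With every 0 hr mouse, runs mixed, the DS baseline turned to 0.19 (Rps3a1), 0.01 (Rps18) and 0.21 (Rps27a) after repeated exposure and to 0.37 (Rps3a1), -0.1 (Rps19), -0.31 (Rpl38) and -1.45 (Rps27rt) after abstinence, and the NAc baseline count became 21. The run differs between these groups, and the cause was not tested.

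Leaving run0194 out of the levels by structure, also added after seeing the data, moved the number of genes lowest in the DS from 64 to 34. Without a filter on low counts the 0 hr counts were 12 (NAc), 7 (DS), 4 (Amy) and 35 (LH), and those of the time courses 24 (DS), 2 (Amy) and 5 (LH). DESeq2 gave 26 in the DS and 2 in the LH time course, TMM factors from the other genes 2 in the LH, and the run0194 libraries 4 in the DS. The cause was not tested.

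With the replicate number as a block the count was 3 between challenge and repeated DS mice, 0, 3 and 36 at 0 hr in the NAc, Amy and LH, and 13 and 18 in the NAc and DS time courses. It moved no other count by over 1.5 times, but the DS baseline could not be fitted in full with the block. The numbers are not shown to pair mice.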
